A study of Mus musculus with 10 samples.

Results

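The 10 genes described here carry out antigen presentation by major histocompatibility complex (MHC) class II molecules in mouse liver. They are the rows of the deposited count table named H2-Aa, H2-Ab1, H2-Eb1, H2-Oa, H2-Ob, H2-DMa, H2-DMb1, H2-DMb2, Cd74 and Ciita, and all 10 were found among its 54532 genes. RNA from whole liver was sequenced from 5 mice given napabucasin (BBI608), a quinone compound known for blocking STAT3 activity, and from 5 mice given its vehicle. Napabucasin was given by oral gavage at 20 mg per kg of body weight each day for 7 days, and the vehicle was 1% NaCMC (sodium carboxymethyl cellulose) given the same way over the same 7 days. The labels call the libraries biological replicates and, as used here, state no strain, sex, age or batch. The p-values set the difference between groups against the spread between these libraries only, and take no account of such unstated factors. Library totals were 15364342 to 17369118 counts in napabucasin livers and 14124484 to 17759967 counts in vehicle livers. All 10 genes passed the filter on low counts, with 14244 genes tested in all. Hepatocyte markers were abundant in every library, as the tissue label says: the summed level of 8 hepatocyte markers was 77106 to 132845 CPM, the unit used for single genes here (counts scaled to a common, TMM-normalised library size), in napabucasin livers and 54342 to 160566 CPM in vehicle livers.

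A class II molecule is a pair of an alpha and a beta chain that displays peptides from endosomes to CD4 T cells. New pairs are held by the invariant chain, Cd74, until it is degraded in the endosome. The last fragment of Cd74 is then exchanged for peptide by H2-DM, a class II-like pair whose alpha chain is H2-DMa and whose beta chain is H2-DMb1 or H2-DMb2. H2-DM is held back by H2-DO, the pair of H2-Oa and H2-Ob, which is known best from B cells. Ciita is the coactivator that switches the set on. In liver these genes belong mainly to Kupffer cells, dendritic cells, B cells and, at a lower level, the sinusoidal endothelium, whereas hepatocytes normally carry little of them.

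Ciita does not bind DNA itself but docks on factors bound to a conserved promoter module of class II genes, which includes an X box bound by the RFX complex and a Y box, an inverted CCAAT element bound by NF-Y. These promoter windows are shown because they are the shared element through which Ciita acts on both the classical and the accessory genes. The sequences are from RefSeq on GRCm38.p6. Windows were listed for 7 of the 10 genes, and H2-Ab1, Cd74 and Ciita were left out. The windows lie at chr17:34287852-34287918 on the minus strand for H2-Aa and, on the plus strand, at chr17:34305761-34305827 for H2-Eb1, chr17:34092289-34092355 for H2-Oa, chr17:34238801-34238867 for H2-Ob, chr17:34153083-34153149 for H2-DMb1 and chr17:34145112-34145178 for H2-DMb2. Each reads 5′ to 3′ on the gene's own strand, and capitals mark the letters TGATTGG, of the Y box, and, 20 to 40 bases ahead of it, GNAAC, of the X box.
H2-Aa: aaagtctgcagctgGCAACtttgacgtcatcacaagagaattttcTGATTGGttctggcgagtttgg
H2-Eb1: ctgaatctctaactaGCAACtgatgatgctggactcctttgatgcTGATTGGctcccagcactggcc
H2-Oa: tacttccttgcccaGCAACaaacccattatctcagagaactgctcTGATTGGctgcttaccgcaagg
H2-Ob: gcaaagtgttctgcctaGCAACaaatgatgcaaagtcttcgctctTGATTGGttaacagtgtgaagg
H2-DMb1: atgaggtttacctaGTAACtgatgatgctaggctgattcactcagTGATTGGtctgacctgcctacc
H2-DMb2: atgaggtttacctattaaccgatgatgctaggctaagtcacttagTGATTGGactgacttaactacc
The 2 matches started 31 bases apart in H2-Aa, H2-Oa and H2-DMb1, 30 bases apart in H2-Eb1 and 28 bases apart in H2-Ob. In H2-DMb2, whose window otherwise resembles that of H2-DMb1, GNAAC was not found at that distance. The TGATTGG match began 50 bases before the RefSeq gene start in H2-Aa, 61 in H2-Eb1, 45 in H2-Oa, 59 in H2-Ob, 63 in H2-DMb1 and 92 in H2-DMb2. Neither of the 2 windows listed for H2-DMa, which start ahead of its span in the deposited table, held TGATTGG on the gene strand. The windows of H2-DMb1 and H2-DMb2 lie inside their spans in that table, which start at 34153072 and 34143307. That of H2-Oa crosses the start of its span, 34092340. The motifs were chosen after these promoters had been seen, and a match is a description only. Among 32851 promoter windows of 300 bases, 7.82% held TGATTGG on either strand and 84.8% held GNAAC on either strand. GNAAC followed by TGATTGG at 20 to 40 bases was present in 0.569% on either strand and in 0.25% on the gene strand.

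The 10 class II genes were all higher on average in napabucasin livers, with fitted log2 fold changes from 0.14 for H2-Ab1 to 1.53 for H2-Ob, and none passed edgeR's adjusted threshold. H2-Ab1 turned below 0 when vehicle replicate 1 was left out. The log2 fold change of napabucasin over vehicle was above 0 for 10 of 10 genes, where it was above 0 for 50.1% of all tested genes. The median over the 10 genes was 0.46, beside 0.00 over all tested genes. At an unadjusted p under 0.05 in edgeR's quasi-likelihood test, 4 of the 10 were higher, H2-Ob, H2-DMb1, H2-DMb2 and Ciita, beside 9.34% of all tested genes. None of the 10 was lower, beside 5.83% of all tested genes. After Benjamini-Hochberg adjustment over all genes, edgeR called 0 of the 10 and 0% of the 14244 genes, the smallest adjusted p of any gene being 0.0644. DESeq2 called 1 of the 10, H2-Ob, with 1.07% of its 14702 genes called higher. In 2 of the 10, H2-Ob and H2-DMb2, every napabucasin liver lay above every vehicle liver, which held for 1.21% of tested genes. In bulk liver RNA, more cells of a type and more RNA per cell cannot be told apart.

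**Figure D1:**
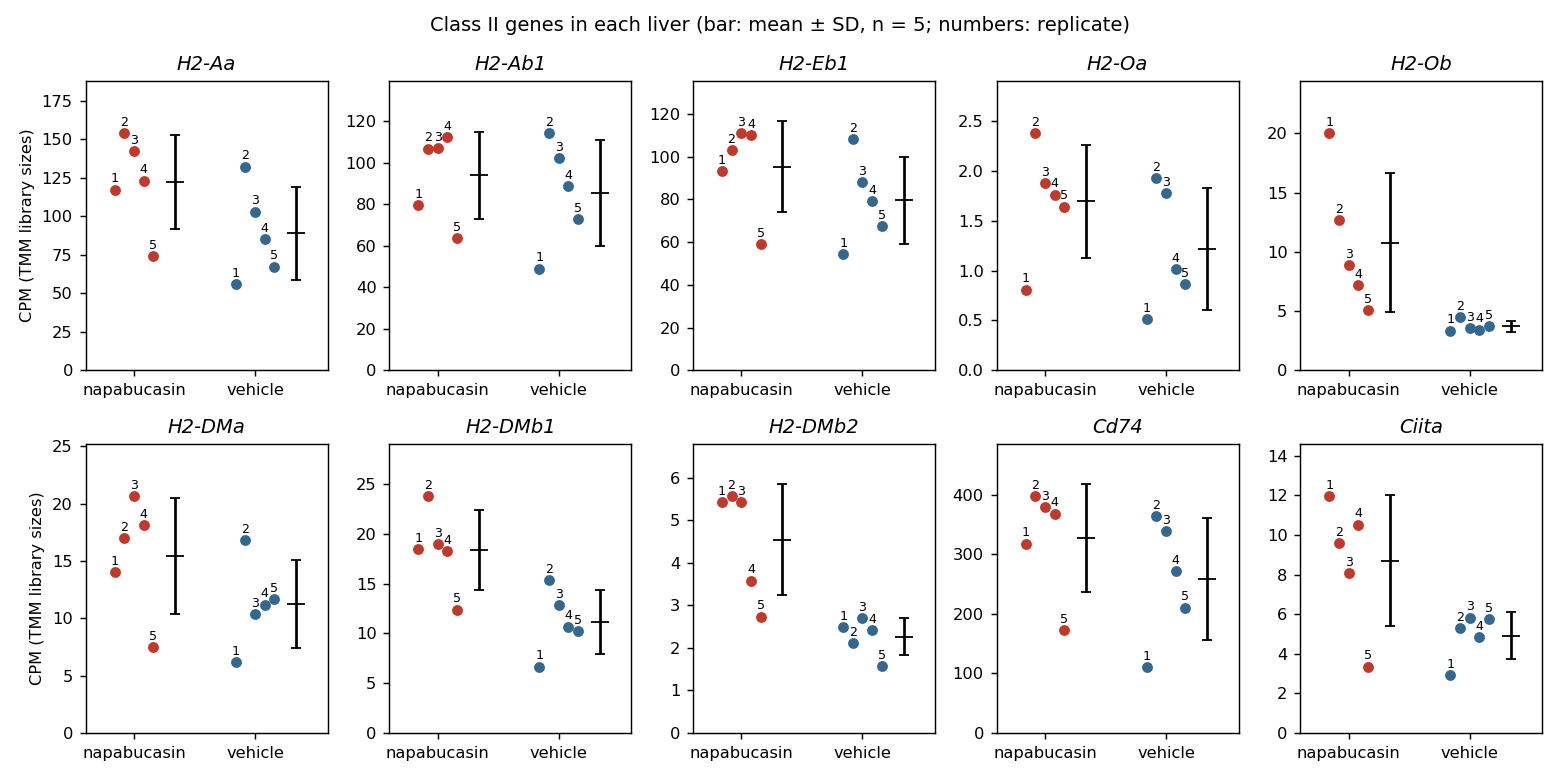
Level of each of the 10 class II genes in each liver, in CPM on TMM library sizes; points are libraries numbered by replicate, and the bars are mean ± SD (n = 5 per group). In H2-Ob and H2-DMb2 the 5 napabucasin livers all lie above the 5 vehicle livers, whereas in the other 8 genes the groups overlap.

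The classical chains, which form the peptide-binding groove, overlapped between groups in all 3 genes. H2-Aa encodes the I-A alpha chain (GRCm38 chromosome 17, 34282744 to 34287827, minus strand). It measured 117, 154, 142, 123 and 74.0 CPM in napabucasin livers 1 to 5, against 56.2, 132, 103, 85.4 and 67.3 CPM in vehicle livers 1 to 5. The groups overlapped: napabucasin replicate 5 lay below vehicle replicates 2, 3 and 4, and vehicle replicate 1 was the lowest of all. H2-Aa averaged 122 ± 30.7 CPM in napabucasin and 88.9 ± 30.2 CPM in vehicle livers (SD, n = 5 each). The log2 fold change was 0.46 with an SE of 0.25 (unadjusted p 0.0939, edgeR adjusted p 0.396). In each of the 5 same-numbered pairs the napabucasin liver was the higher, as it also was for H2-Oa, H2-Ob, H2-DMb1 and H2-DMb2. With the replicate block the log2 fold change was 0.48 (unadjusted p 0.0216, edgeR adjusted p 0.175), which made H2-Aa the gene that joined H2-Ob, H2-DMb1, H2-DMb2 and Ciita under an unadjusted p of 0.05 in that fit.

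H2-Ab1 encodes the I-A beta chain that pairs with H2-Aa (chromosome 17, 34263209 to 34269418, plus strand). It measured 79.7, 107, 107, 112 and 63.8 CPM in napabucasin livers 1 to 5, against 49.0, 114, 102, 88.9 and 72.9 CPM in vehicle livers. Vehicle replicate 2 was the highest of the 10 libraries for this gene and vehicle replicate 1 the lowest, so the vehicle group spanned the napabucasin group. Its log2 fold change was 0.14 with an SE of 0.24 (95% interval -0.38 to 0.65, edgeR adjusted p 0.789), and it was -0.028 without vehicle replicate 1. H2-Eb1 encodes the I-E beta chain (chromosome 17, 34305877 to 34316199, plus strand). It measured 93.3, 103, 111, 110.3 and 59.2 CPM in napabucasin livers, against 54.5, 108, 88.3, 79.4 and 67.5 CPM in vehicle livers. Napabucasin replicate 5 lay below 4 of the 5 vehicle livers, and the log2 fold change was 0.26 with an SE of 0.22 (95% interval -0.22 to 0.74, edgeR adjusted p 0.563). It was 0.13 without vehicle replicate 1 and 0.41 without vehicle replicate 2. Of related genes, H2-Ea-ps had 0 to 5 counts in napabucasin and 0 to 17 counts in vehicle livers, and H2-Eb2 had 0 to 16 counts in napabucasin and 0 to 6 counts in vehicle livers. Both were under the filter.

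Cd74, the invariant chain, was the most abundant gene of the set per length (chromosome 18, 60803848 to 60812646, plus strand). It measured 318, 398, 379, 368 and 173 CPM in napabucasin livers 1 to 5, against 111, 364, 338, 271 and 210.4 CPM in vehicle livers 1 to 5. Napabucasin replicate 5 lay below every vehicle liver but replicate 1, which again was the lowest of the 10. The means were 327 ± 91.3 CPM in napabucasin and 259 ± 102 CPM in vehicle livers (SD, n = 5 each), with a log2 fold change of 0.34, an SE of 0.31 and an edgeR adjusted p of 0.595. Without vehicle replicate 1 the log2 fold change was 0.13.

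The 3 chains of the peptide exchanger H2-DM had means that were higher in napabucasin livers, and among them only the beta chains had an unadjusted p under 0.05. H2-DMa, the alpha chain (chromosome 17, 34135182 to 34139101, plus strand), measured 14.03, 17.0, 20.7, 18.2 and 7.46 CPM in napabucasin livers, against 6.16, 16.9, 10.4, 11.2 and 11.7 CPM in vehicle livers. The groups overlapped, and its log2 fold change was 0.45 with an SE of 0.29 and an edgeR adjusted p of 0.451, or 0.28 without vehicle replicate 1. H2-DMb1, a beta chain (chromosome 17, 34153072 to 34160230, plus strand), measured 18.5, 23.8, 19.0, 18.3 and 12.4 CPM in napabucasin livers, against 6.67, 15.3, 12.9, 10.7 and 10.2 CPM in vehicle livers. The overlap rested on napabucasin replicate 5, which lay below vehicle replicates 2 and 3. H2-DMb1 averaged 18.4 ± 4.05 CPM in napabucasin and 11.1 ± 3.23 CPM in vehicle livers (SD, n = 5 each). Its log2 fold change was 0.72 with an SE of 0.23 (unadjusted p 0.00841, edgeR adjusted p 0.246).

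H2-DMb2, the other beta chain (chromosome 17, 34143307 to 34151553, plus strand), measured 5.42, 5.57, 5.42, 3.58 and 2.74 CPM in napabucasin livers, against 2.48, 2.11, 2.70, 2.42 and 1.58 CPM in vehicle livers. The groups did not overlap, though napabucasin replicate 5 and vehicle replicate 3 were close. Its means were 4.55 ± 1.30 CPM in napabucasin and 2.26 ± 0.433 CPM in vehicle livers (SD, n = 5 each), and the log2 fold change was 1.01 with an SE of 0.28 (95% interval 0.41 to 1.61, unadjusted p 0.00277, edgeR adjusted p 0.221, DESeq2 adjusted p 0.0532). The beta chains are near copies of each other, so their separate counts are uncertain. Their annotated transcripts of 1404 bases for H2-DMb1 and 1424 bases for H2-DMb2 were 93.9% identical over aligned bases, shared a run of 221 bases, and 26.8% of all 50-base runs of H2-DMb2 were also in H2-DMb1.

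Of the chains of H2-DO, which restrains H2-DM, H2-Ob did not overlap between groups and H2-Oa did. H2-Ob, the beta chain (chromosome 17, 34238903 to 34245907, plus strand), measured 20.01, 12.7, 8.90, 7.16 and 5.06 CPM in napabucasin livers 1 to 5, against 3.33, 4.45, 3.55, 3.43 and 3.73 CPM in vehicle livers 1 to 5. The napabucasin livers spanned a 3.95-fold range, all of it above the highest vehicle liver, and the vehicle livers spanned a 1.34-fold range. In counts, these values rest on 74 to 321 reads in napabucasin and 39 to 97 reads in vehicle livers. The means were 10.8 ± 5.88 CPM in napabucasin and 3.70 ± 0.447 CPM in vehicle livers (SD, n = 5 each). The log2 fold change was 1.53 with an SE of 0.33 (95% interval 0.83 to 2.23), and H2-Ob ranked 30th of all tested genes by p (unadjusted p 0.000355, edgeR adjusted p 0.157). DESeq2 gave a log2 fold change of 1.52 with an adjusted p of 0.00354, and limma-voom gave 1.26 with an adjusted p of 0.047. Without napabucasin replicate 1, the highest library, edgeR's log2 fold change was 1.19. That library also had the highest mitochondrial share of counts, 19.9%, beside 9.03% to 15.3% in the other 4 napabucasin livers and 7.03% to 8.78% in vehicle livers 2 to 5. Vehicle replicate 1, the lowest library for 9 of the 10 class II genes, had a mitochondrial share of 19.0%. Genes annotated as ribosomal RNA held 1.09% of counts in napabucasin replicates 1 and 2 and 0.912% in vehicle replicate 2. In all other livers they held 0.195% to 0.455%. Those livers with the larger share were also the highest of their groups for H2-Ob. The part of these mitochondrial and ribosomal RNA shares in these results was not tested.

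H2-Oa, the alpha chain of H2-DO (chromosome 17, 34092340 to 34095234, plus strand), was near the lower limit of what these libraries measure. It had 13, 44, 34, 33 and 24 counts in napabucasin livers, against 6, 42, 25, 18 and 12 counts in vehicle livers. That is 0.811, 2.38, 1.88, 1.76 and 1.64 CPM in napabucasin livers and 0.513, 1.93, 1.78, 1.01 and 0.862 CPM in vehicle livers. The groups overlapped, and napabucasin replicate 1, the highest for H2-Ob, was the lowest of its group for H2-Oa. The log2 fold change was 0.46 with an SE of 0.41 (95% interval -0.42 to 1.34, edgeR adjusted p 0.582). It was 0.26 without vehicle replicate 1, 0.30 without napabucasin replicate 2 and 0.71 without vehicle replicate 2.

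Ciita, the coactivator of the class II promoters (chromosome 16, 10480059 to 10528418, plus strand), measured 11.97, 9.58, 8.07, 10.5 and 3.35 CPM in napabucasin livers, against 2.91, 5.28, 5.83, 4.83 and 5.74 CPM in vehicle livers. Napabucasin livers 1 to 4 lay above all vehicle livers, and napabucasin replicate 5 lay below all of them but replicate 1. The means were 8.70 ± 3.31 CPM in napabucasin and 4.92 ± 1.19 CPM in vehicle livers (SD, n = 5 each), and the log2 fold change was 0.82 with an SE of 0.31 (unadjusted p 0.0197, edgeR adjusted p 0.278). The unadjusted p was 0.0555 without napabucasin replicate 1 and 0.0502 without vehicle replicate 1. Ciita overlaps Dexi on the opposite strand, which had 339 to 437 counts in napabucasin and 219 to 313 counts in vehicle livers, so reads of the shared stretch cannot be told apart without strand. The antisense genes that overlap H2-Eb1 and H2-Oa had at most 4 counts in any library.

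**Figure D2:**
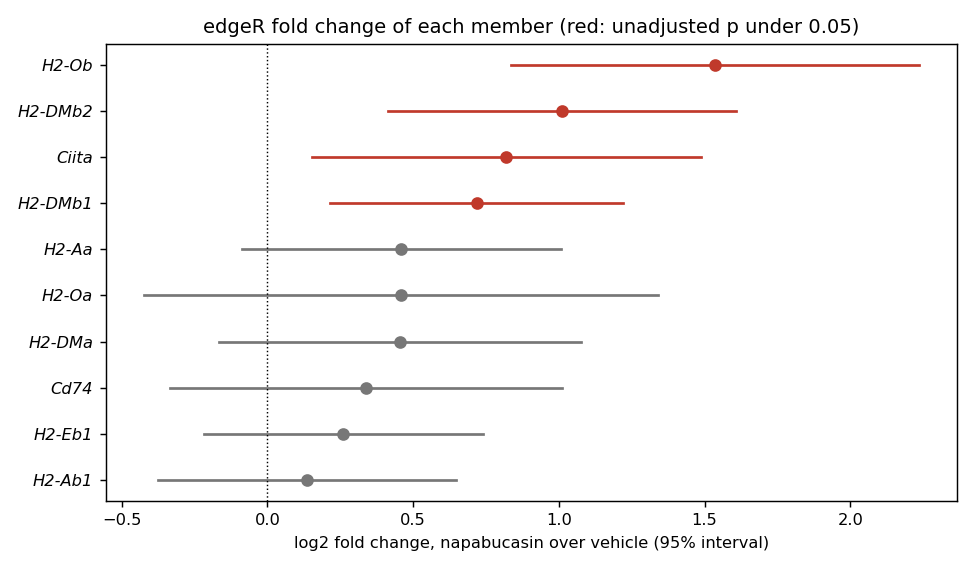
Fold change of each class II gene, napabucasin over vehicle, on the log2 scale, with the 95% interval from edgeR (5 livers per group); red marks an unadjusted p under 0.05. The intervals of H2-Ob, H2-DMb2, Ciita and H2-DMb1 lie above 0, that of Ciita reaching down to 0.15, and the other 6 cross 0. The fold changes of these genes with intervals above 0 run from 1.53 for H2-Ob to 0.72 for H2-DMb1.

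Per length, the deposited FPKM values (fragments scaled to gene length and a library size) placed the genes over a wide range. That library size was not the plain total, being 0.843 times the total counts in vehicle replicate 1 and 1.25 times in vehicle replicate 2. Cd74 averaged 229 ± 64.5 FPKM in napabucasin and 182 ± 71.1 FPKM in vehicle livers (SD, n = 5 each), above every other member by more than its own SD. The classical chains followed, with 79.5 ± 18.2, 64.4 ± 16.4 and 56.6 ± 12.98 FPKM for H2-Eb1, H2-Aa and H2-Ab1 in napabucasin livers, against 66.7 ± 16.7, 47.0 ± 15.6 and 51.8 ± 15.3 FPKM in vehicle livers. Neighbours among these 3 differed by less than the larger of their SDs. The H2-DM chains came next, H2-DMb1 with 12.2 ± 2.70 FPKM in napabucasin and 7.45 ± 2.12 FPKM in vehicle livers and H2-DMa with 9.31 ± 3.11 FPKM in napabucasin and 6.81 ± 2.28 FPKM in vehicle livers. H2-Ob averaged 3.36 ± 1.81 FPKM in napabucasin and 1.16 ± 0.136 FPKM in vehicle livers, and H2-DMb2 averaged 2.62 ± 0.754 FPKM in napabucasin and 1.31 ± 0.245 FPKM in vehicle livers. These genes changed places between the groups, but in both groups they differed by less than the larger SD. H2-Oa, at 1.27 ± 0.431 FPKM in napabucasin and 0.919 ± 0.454 FPKM in vehicle livers, and Ciita, at 0.899 ± 0.338 FPKM in napabucasin and 0.513 ± 0.128 FPKM in vehicle livers, were the lowest. Per length, the regulator of the set was thus among its least abundant transcripts in both groups, over an annotated 9535 bases, the longest of the set. In mean CPM, which is not scaled to length, Ciita lay above H2-Oa and H2-DMb2 in both groups and above H2-Ob in vehicle livers.

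Ratios of partner chains within a library do not depend on library scaling. Of 7 ratios compared by a two-sided exact permutation test with 252 label assignments, none passed 0.05 after Benjamini-Hochberg adjustment over the 7, and in all 7 the groups overlapped. The smallest p belonged to H2-Ab1 over H2-Aa, the chains of I-A. There were 0.680, 0.693, 0.750, 0.911 and 0.862 H2-Ab1 counts per H2-Aa count in napabucasin livers 1 to 5, against 0.872, 0.863, 0.992, 1.04 and 1.08 in vehicle livers 1 to 5. Napabucasin livers 1, 2, 3 and 5 lay below every vehicle liver, replicate 5 only just, and napabucasin replicate 4 lay within the vehicle range. On the log2 scale the ratio averaged -0.37 ± 0.19 in napabucasin and -0.05 ± 0.15 in vehicle livers (SD, n = 5 each), a difference of -0.32 (exact permutation p 0.0317, adjusted p 0.139). H2-Eb1 over H2-Aa averaged -0.35 ± 0.15 in napabucasin and -0.13 ± 0.12 in vehicle livers, a log2 difference of -0.22 (exact permutation p 0.0397, adjusted p 0.139). With labels exchanged only within same-numbered pairs, the replicate block, both ratios gave an exact permutation p of 0.0625, the smallest that 5 pairs allow.

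H2-Ob over H2-Oa averaged 2.56 ± 1.16 in napabucasin and 1.72 ± 0.65 in vehicle livers on the log2 scale, a difference of 0.84 (exact permutation p 0.190, n = 5 each), or 0.34 without napabucasin replicate 1 (exact permutation p 0.373). It reached 4.57 in napabucasin replicate 1, against 1.604 to 2.40 in the other 4 napabucasin livers and 0.99 to 2.60 in vehicle livers. H2-DMb1 over H2-DMa averaged 0.30 ± 0.35 in napabucasin and 0.00 ± 0.21 in vehicle livers, and H2-DMb2 over H2-DMa averaged -1.73 ± 0.40 in napabucasin and -2.25 ± 0.69 in vehicle livers (exact permutation p 0.143 and 0.198). The beta chain ratio H2-DMb2 over H2-DMb1 differed by 0.23 between groups (exact permutation p 0.413), and Cd74 over H2-Aa differed by -0.09 (exact permutation p 0.579). Without vehicle replicate 1 the differences were 0.76 for H2-DMb2 over H2-DMa (exact permutation p 0.0476) and -0.22 for Cd74 over H2-Aa (exact permutation p 0.0397).

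**Figure D3:**
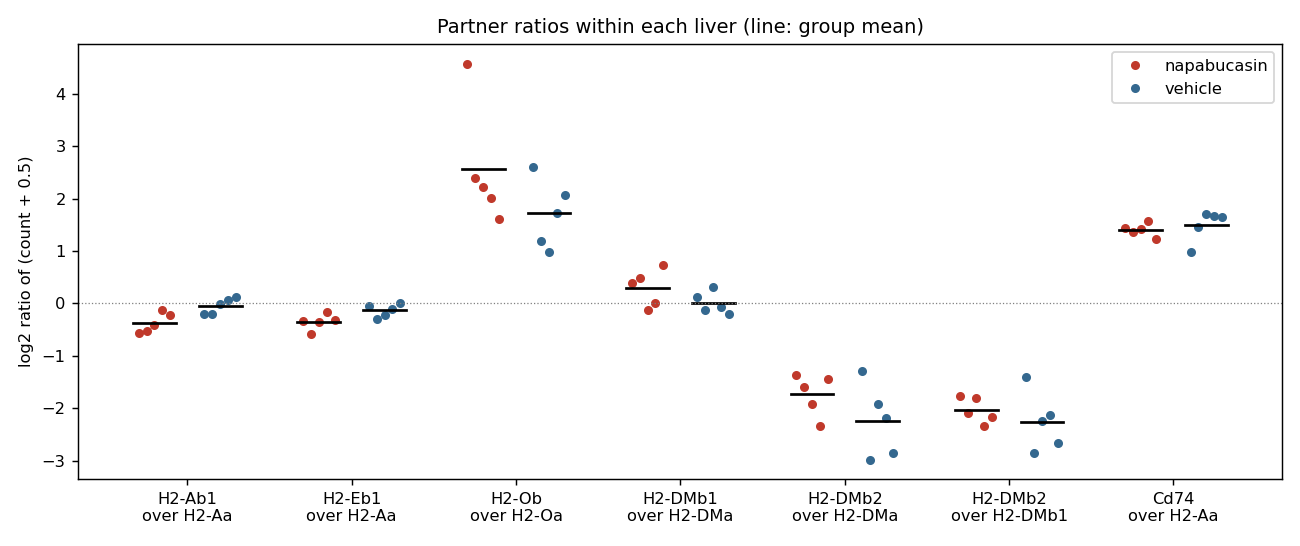
Log2 ratio of partner genes in each liver, from counts with 0.5 added; points are libraries and lines are group means (5 livers per group, napabucasin left of vehicle in each pair). The groups overlap in all 7 ratios, and 1 napabucasin liver stands at 4.57 for H2-Ob over H2-Oa.

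Across livers the class II genes were alike to differing degrees. Pearson's r of log2 CPM over the 10 libraries, given as a description of genes that share the same libraries, was 0.936 to 0.965 between Cd74 and the 3 classical chains. H2-Ob was most alike H2-DMb2, with r of 0.880, then Ciita with 0.802 and H2-DMb1 with 0.793, and less alike H2-Ab1 with 0.297 and its own partner H2-Oa with 0.229. The lowest library was vehicle replicate 1 for 9 of the 10 genes, H2-DMb2 being the exception, and the lowest napabucasin library was replicate 5 for all but H2-Oa. Summed over the 10 genes, napabucasin livers 1 to 5 held 679, 833, 804, 773 and 402 CPM, against 293, 765, 669, 559 and 452 CPM in vehicle livers. Vehicle replicate 2 therefore stood among the napabucasin livers and napabucasin replicate 5 among the vehicle livers. With napabucasin replicate 5 and vehicle replicate 1 both left out, a choice made after the data were seen, the median log2 fold change of the 10 genes was 0.45 and the same 4 genes had an unadjusted p under 0.05.

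**Figure D4:**
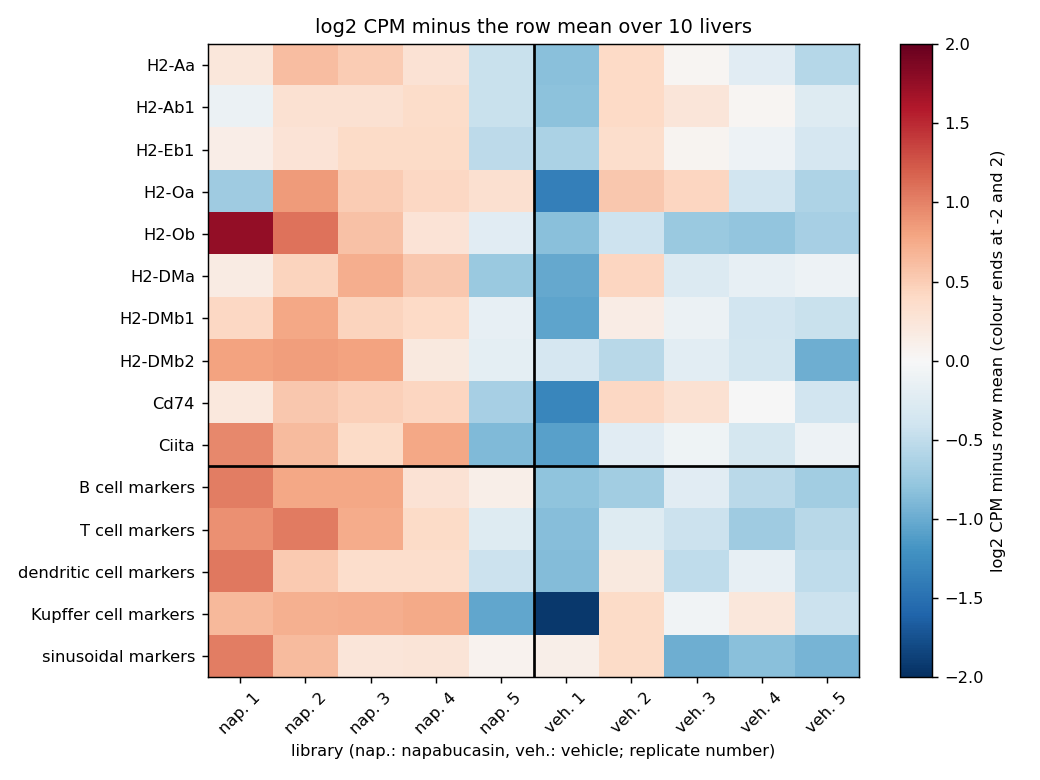
Log2 CPM of the 10 class II genes (above the line) and of summed cell type markers (below it) in each liver, minus the row mean over the 10 livers; napabucasin livers are left and vehicle livers right of the vertical line. Vehicle replicate 1 has the lowest value for 9 of the 10 genes, and the H2-Ob row is above its mean in 4 of 5 napabucasin livers and below it in all 5 vehicle livers.

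Markers of B cells, which carry class II and H2-DO, were also higher in napabucasin livers. Of 13 B cell markers, 12 were higher at an unadjusted p under 0.05 and Cr2 was not, beside 9.34% of all tested genes. Among those with the smallest p were Ighd, the heavy chain of surface IgD, with a log2 fold change of 1.96, and Cd22, a B cell inhibitory receptor, with 1.42. Over the 13, the median log2 fold change was 1.26, and the summed level was 101 to 190 CPM in napabucasin and 53.8 to 79.9 CPM in vehicle livers, with no overlap. Per 100 CPM of B cell markers, H2-Ob had 10.5, 7.97, 5.59, 6.26 and 5.02 CPM in napabucasin livers 1 to 5, against 6.20, 7.75, 4.44, 5.33 and 6.48 CPM in vehicle livers 1 to 5. On this scale napabucasin replicates 1 and 2 lay above every vehicle liver and the other 3 within the vehicle range, with means of 7.08 ± 2.23 in napabucasin and 6.04 ± 1.24 in vehicle livers (SD, n = 5 each). H2-DMb2 had 2.71 to 3.51 CPM per 100 CPM of B cell markers in napabucasin and 2.74 to 4.61 in vehicle livers, with a lower mean in napabucasin (3.12 ± 0.340) than in vehicle livers (3.63 ± 0.678) and no napabucasin liver above the vehicle range. What part B cell number had in the levels of H2-Ob and H2-DMb2 was not tested.

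Kupffer cell and macrophage markers were low in 1 liver of each group. Their summed level was 2929, 3058, 3108, 3184 and 915 CPM in napabucasin livers 1 to 5, against 493, 2453, 1783, 2197 and 1394 CPM in vehicle livers 1 to 5. Those livers, napabucasin replicate 5 and vehicle replicate 1, were also the lowest of their groups for the classical chains. All 12 of these markers had a log2 fold change above 0, with a median of 0.66. At an unadjusted p under 0.05, 2 of 12 were higher, beside 9.34% of all tested genes. They were Clec4f, a lectin of Kupffer cells, at 1.07 and Cd68, a macrophage lysosomal protein, at 0.90. C1qc, a chain of complement C1q, came next at 0.73. The sum of H2-Aa, H2-Ab1, H2-Eb1 and Cd74 was 608, 762, 739.7, 714 and 369.8 CPM in napabucasin livers 1 to 5, against 270.5, 719, 632, 525 and 418 CPM in vehicle livers. Per 100 CPM of these markers it was 20.8, 24.9, 23.8, 22.4 and 40.4 CPM in napabucasin livers, against 54.8, 29.3, 35.5, 23.9 and 30.0 CPM in vehicle livers. On that scale the napabucasin livers other than replicate 5 overlapped only the lowest vehicle liver. The part of Kupffer cell number in these levels was not tested.

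**Figure D5:**
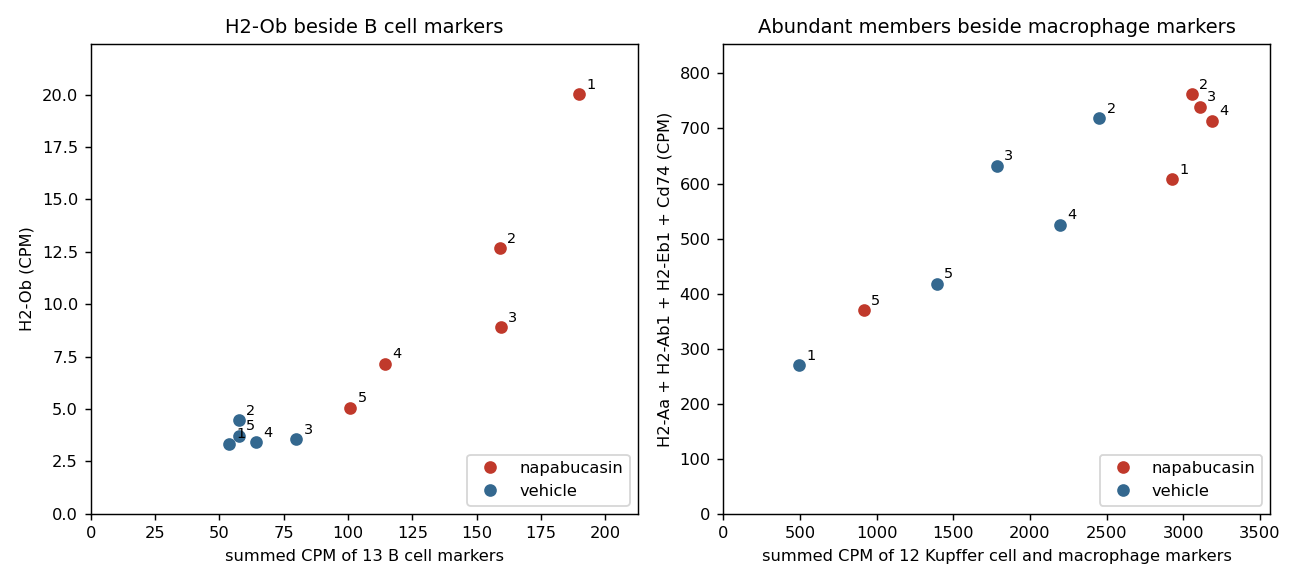
Left, H2-Ob against the summed CPM of 13 B cell markers; right, the summed CPM of H2-Aa, H2-Ab1, H2-Eb1 and Cd74 against that of 12 Kupffer cell and macrophage markers; each point is a liver, labelled by replicate. On the left the napabucasin livers lie above and to the right of the vehicle livers, and on the right napabucasin replicate 5, at 369.8 CPM, lies among the vehicle livers.

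Other lists moved with the class II genes in part. Of 11 tested dendritic cell markers, 5 were higher at an unadjusted p under 0.05, beside 9.34% of all tested genes. They were led by Clec9a, a lectin of cross-presenting dendritic cells, at a log2 fold change of 1.57, Itgax at 0.82 and Flt3, a cytokine receptor, at 0.81. The 11 markers summed to 34.8 to 97.3 CPM in napabucasin and 25.6 to 53.2 CPM in vehicle livers. Of 10 T cell markers, 7 were higher, beside the same 9.34%, led by Cd3d at 1.97, Lck at 1.36 and Cd8a at 1.62. Their sum was 17.24 to 42.3 CPM in napabucasin and 11.5 to 17.22 CPM in vehicle livers. Of 8 sinusoidal endothelial markers, 4 were higher, beside the same 9.34%. The 3 with the smallest p were Pecam1 at 0.77, Mrc1 at 1.11 and Stab2 at 0.91. The 8 markers summed to 245 to 477 CPM in napabucasin and 119 to 305 CPM in vehicle livers. Of 8 hepatocyte markers, all had a log2 fold change below 0, with a median of -0.24. At an unadjusted p under 0.05, 1 was lower, the urea cycle enzyme Cps1 at -0.59, beside 5.83% of all tested genes. Fgb stood at -0.44 and Apob at -0.31. None of these markers had an edgeR adjusted p under 0.05, and no marker that was tested had a group mean of 0.

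Class II genes depend on promoter factors, and interferon-gamma signalling is among the inducers of Ciita. Of 7 factors of the class II promoter, 1 was higher at an unadjusted p under 0.05, beside 9.34% of all tested genes. It was Rfxank, a subunit of the RFX complex, with a log2 fold change of 0.72 (unadjusted p 0.0494). Rfx5, the DNA-binding subunit, stood at 0.24, and Rfxap, the remaining subunit, at -0.33. The median over the 7 was 0.12. Of the genes that induce or repress Ciita, 7 of 8 were tested and 3 were higher at an unadjusted p under 0.05, beside the same 9.34%. Among them were Ifngr1, the ligand-binding chain of the interferon-gamma receptor, at 0.61 (p 0.0206), and the receptor-associated kinase Jak2 at 0.35 (p 0.0485). Ifngr2, the other receptor chain, stood at -0.57 (p 0.0551). Ifng itself, which encodes interferon-gamma, had 0 to 11 counts in napabucasin and 0 to 7 counts in vehicle livers and was under the filter.

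Of 7 endosomal proteases and reductases, none passed an unadjusted p of 0.05. The nearest were Ctss, the protease that trims the invariant chain in antigen-presenting cells, at a log2 fold change of 0.70 (p 0.0945), and Ctsl, a related cathepsin, at -0.38 (p 0.0962), with Lgmn at 0.56 and Ctsh at -0.17. Of the genes of class II traffic and turnover, 4 were matched and tested and none passed, with Cd63 at 0.08, Ap1m1 at -0.19 and Arl14ep at -0.09. Of 6 genes of costimulation and CD4 recognition, all stood above 0 with a median of 0.75. In this list 2 were higher at an unadjusted p under 0.05, beside 9.34% of all tested genes. They were Cd86, the ligand that gives T cells their second signal, at 1.17 (p 0.00693), and Icosl, the ligand of ICOS, at 0.97 (p 0.00702). None of the genes in these lists passed edgeR's adjusted threshold.

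The genes whose pattern was most alike the mean of the 10 class II genes over the 10 libraries, by Pearson's r of log2 CPM, were Adrb1 with 0.990, Themis2 with 0.985, Lst1 with 0.984, Epsti1 with 0.977, Clec1b with 0.975, Akna with 0.973, Cd86 with 0.969 and Entpd1 with 0.968. Those most alike H2-Ob were Traf3ip3 with 0.975, Cd22 with 0.972, Il18rap with 0.969 and Cntln with 0.965. None of these 8 genes was also among the 4. These values describe 10 libraries that share depth and makeup, and carry no test.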

How the data were processed

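RNA was sequenced from 10 livers, 5 per group, assigned by the treatment label. The authors deposited raw read counts per gene and FPKM values; per the submitters' processing notes, CASAVA, HISAT2 2.0.5 and featureCounts 1.5.0-p3 were used with GRCm38 (mm10). For strand setting and annotation release, the sources used here give nothing.

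From the counts, R 4.3.3 and edgeR 4.0.16 were used (filterByExpr, TMM, robust quasi-likelihood F test, treatment only), with Benjamini-Hochberg adjustment over the 14244 genes tested and a threshold of 0.05. CPM uses TMM library sizes. Standard errors are those implied by the F statistic. Partner ratios (counts + 0.5) were compared by exact permutation in Python 3.11.15. The edgeR procedure was tested on simulated data. At an adjusted p under 0.05 it called 2 of 48 genes changed 1.5-fold and 6 of 48 changed 2-fold. It called 42 of 47 genes changed 4-fold, 46 of 49 changed 8-fold and 5 of 13895 unchanged genes. The FPKM values were used for levels between genes and in alternatives.

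The 10 genes, the gene lists and the ratios were chosen with earlier results of these data known. All 10 genes were named; pathway lists gave up to 2 genes per direction and marker lists up to 3 genes, by smallest p, and Jak2 was named outside this rule after its value was seen. Of the genes that the rule names, 2 are not reported here. The 8 genes most alike the mean and the 4 most alike H2-Ob were named by r.

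Alternatives were RLE (relative log expression) or no scaling, other filters on low counts, the test without robust estimation, DESeq2 1.42.0, limma 3.58.1 (voom with quality weights, and on log2 FPKM with 1 or 0.1 added for a mean of at least 0.5 FPKM, or unfiltered), a replicate block and each library left out. Between livers with the same number, deviations from the group mean had correlations of 0.154, 0.227, 0.208, 0.270 and 0.278. For 6 of 10 livers, the same-numbered liver was the most alike of the other group. From these data, equal numbers were treated as pairs in the replicate block, while the main tests did not pair livers. The labels do not say what equal numbers share.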

Additional observations from a re-analysis of the deposited data

Results flagged for a closer look

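Among 52 groups of 5 values examined, 3 had 1 library farther from the rest than Dixon's 95% criterion allows (a gap over range above 0.71), where chance gives about 1 in 20. The log2 ratio of H2-Ob over H2-Oa was 4.57 in napabucasin replicate 1, against 1.604 to 2.40 in the other 4 napabucasin livers. The summed level of Kupffer cell and macrophage markers was 915 CPM in napabucasin replicate 5, against 2929 to 3184 CPM in the other 4. The sum of H2-Aa, H2-Ab1, H2-Eb1 and Cd74 per 100 CPM of those markers was 40.4 in napabucasin replicate 5, against 20.8 to 24.9 in the other 4.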

How the results depend on the processing

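H2-Ob, H2-DMb1 and H2-DMb2 had an unadjusted p under 0.05 in every setting, and the number of class II genes that did so was 3 to 6, with 5 under the replicate block. The number of all genes past the adjusted threshold was 0 with edgeR and also with the replicate block, 1 with library totals only, 19 without a filter on low counts, 209 with DESeq2, 132 with limma-voom, 1 with log2(FPKM + 0.1), 0 to 18 with 1 library left out (18 without vehicle replicate 1, 3 without napabucasin replicate 5) and 14 with both of these left out. H2-Ob was called with DESeq2, limma-voom and no filter (adjusted p 0.0323), and no other class II gene was called in any setting. The median log2 fold change of the 10 genes was 0.30 without vehicle replicate 1 and 0.68 without vehicle replicate 2. H2-Ab1 turned to -0.028 when vehicle replicate 1 was left out, and its highest value, 0.27, came with vehicle replicate 2 left out. The log2 difference of H2-Ab1 over H2-Aa was -0.32 under the replicate block, -0.38 to -0.27 with 1 library left out and -0.40 with both of those libraries left out (exact permutation p 0.0571). Its exact permutation p was 0.0635 without napabucasin replicate 1, 2 or 3 or vehicle replicate 3, 4 or 5. For H2-Eb1 over H2-Aa these were -0.22, -0.27 to -0.16 and -0.20 (exact permutation p 0.114), with an exact permutation p of 0.0556 to 0.0873 without napabucasin replicate 1, 2, 3 or 5 or vehicle replicate 1, 4 or 5. With 1 library left out, H2-Ob over H2-Oa ran from 0.34 without napabucasin replicate 1 to 1.08 without napabucasin replicate 5, H2-DMb1 over H2-DMa was 0.19 without napabucasin replicate 5, H2-DMb2 over H2-DMb1 was lowest, 0.079, when vehicle replicate 2 was dropped and highest, 0.44, when vehicle replicate 1 was, H2-DMb2 over H2-DMa ran from 0.34 to 0.76 and Cd74 over H2-Aa from -0.22 to -0.032. The cause of these differences was not tested, beyond the fewer samples or other genes each setting uses. Depth limits H2-Oa most, with 6 to 44 counts a library.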
